A study of Drosophila melanogaster with 6 samples.

Results

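The 10 genes described here encode transcription factors of the proximal-distal axis of the fly appendages, and they were measured in wing imaginal discs with almost no Kdm5 transcript. The genes are odd, drm, sob, zfh2, dac, bab1, bab2, rn, al and Dll. Members were the probe sets that the platform annotation assigns to 1 of these genes and to no other, which gave 13 probe sets for all 10 genes, of 18769 probe sets tested and 11981 genes named on the array. Each probe set was kept separate, with 3 for Dll, 2 for rn and 1 for each other gene. The wing imaginal disc is a sheet of larval epithelium from which the wing blade, the hinge and the back of the thorax develop. Discs came from late-stage (the third instar) Drosophila melanogaster larvae at 96 h AED, raised at the same temperature, with about 60 discs for each sample. The mutant group carried the strain label kdm510424 and the genotype label kdm5 mutant, and the wild type group was the strain w1118. Each group had 3 biological replicates, and each replicate was measured on 1 Affymetrix Drosophila Genome 2.0 array. The labels do not say what the lesion of the allele is or whether the mutant strain shares its background with w1118, so effects of the mutation and of the strain cannot be told apart.

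The proximal-distal axis runs from the body wall to the tip of a limb. In the leg, Wingless and Dpp signals switch on Distal-less (Dll) at the centre and dachshund (dac) around it, and EGF receptor signalling then patterns the tip through aristaless (al), bric a brac (bab1 and bab2) and rotund (rn). The odd-skipped family of zinc finger proteins (odd, drm, sob and bowl) acts at leg joints and in proximal tissue. In the wing disc Dll is expressed along the future wing margin, rn across the wing pouch, and zfh2 in the hinge that joins wing and body wall. Kdm5, also called lid, removes methyl groups from lysine 4 of histone H3, and the comparison asks which of these patterning transcripts differ when it is reduced.

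The values below are the authors' normalized log2 signals, so a difference of 1 is a 2-fold change. A probe set was called changed when its adjusted p was under 0.05 in limma, a linear model fitted to all 18769 probe sets, with Benjamini-Hochberg adjustment over all of them. Kdm5 itself read 4.67, 3.70 and 4.49 in the mutant arrays, against 10.09, 10.15 and 9.98 in the wild type arrays, so the targeted transcript bore out the labels. Arrays correlated at 0.998 to 0.999 within a genotype and at 0.989 to 0.990 between genotypes, across probe sets, and no array stood apart in these correlations. They can miss differences confined to few genes, and wild type replicate 1 read above the other wild type arrays in the salivary gland markers given below. The median signal of the 18769 probe sets over the 6 arrays was 4.44, and signals near it may be close to background, for which the values hold no detection call. Of the wing disc markers 7 of 9 were measured (vg, nub, ap, ptc, pnr, ara and caup), and all 7 lay above this median signal in at least 1 genotype. Counted by the brightest probe set of each, ptc and vg were called lower and none higher. Dimmer probe sets were called higher for ap (log2 change 0.58) and nub (0.95) and lower for nub (-0.59), and the second of vg was not called (0.04). The log2 of the summed signal of the 7 brightest probe sets lay between 13.39 and 13.51 in the mutant arrays and between 13.46 and 13.50 in the wild type arrays.

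Of the 13 member probe sets 8 were called, 3 higher and 5 lower in the mutant, which is 61.5% against 18.3% of all probe sets (8.49% higher and 9.84% lower). Among probe sets whose mean lay above the median signal, as 12 of the 13 did, 31.9% were called. Counted by gene, 7 of the 10 had a called probe set, in Dll and rn the brightest among them. Of all named genes counted by their brightest probe set, 21.7% were called. The members were chosen with earlier results of these data known, so the distance from these shares is not a test of the members as a group. The higher ones were sob, drm and bab2, and the lower ones were bab1, al, 2 probe sets of Dll and 1 of rn. The probe sets of odd, zfh2 and dac were not called, nor was the remaining probe set of Dll or of rn. No member changed 2-fold, as 2.56% of all probe sets did with a call. The median absolute log2 change was 0.27 over the members and 0.10 over all probe sets. The 2 genotypes did not overlap in 10 of the 13 probe sets (76.9%), against 36.1% of all probe sets. An exact two-sided permutation test of 3 arrays against 3 cannot give less than p = 0.1, and each of these 10 probe sets gave that value. The labels call the replicates biological but do not say that they came from separate crosses, so the p-values cover the spread among these 6 samples, which may be technical.

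**Figure D1:**
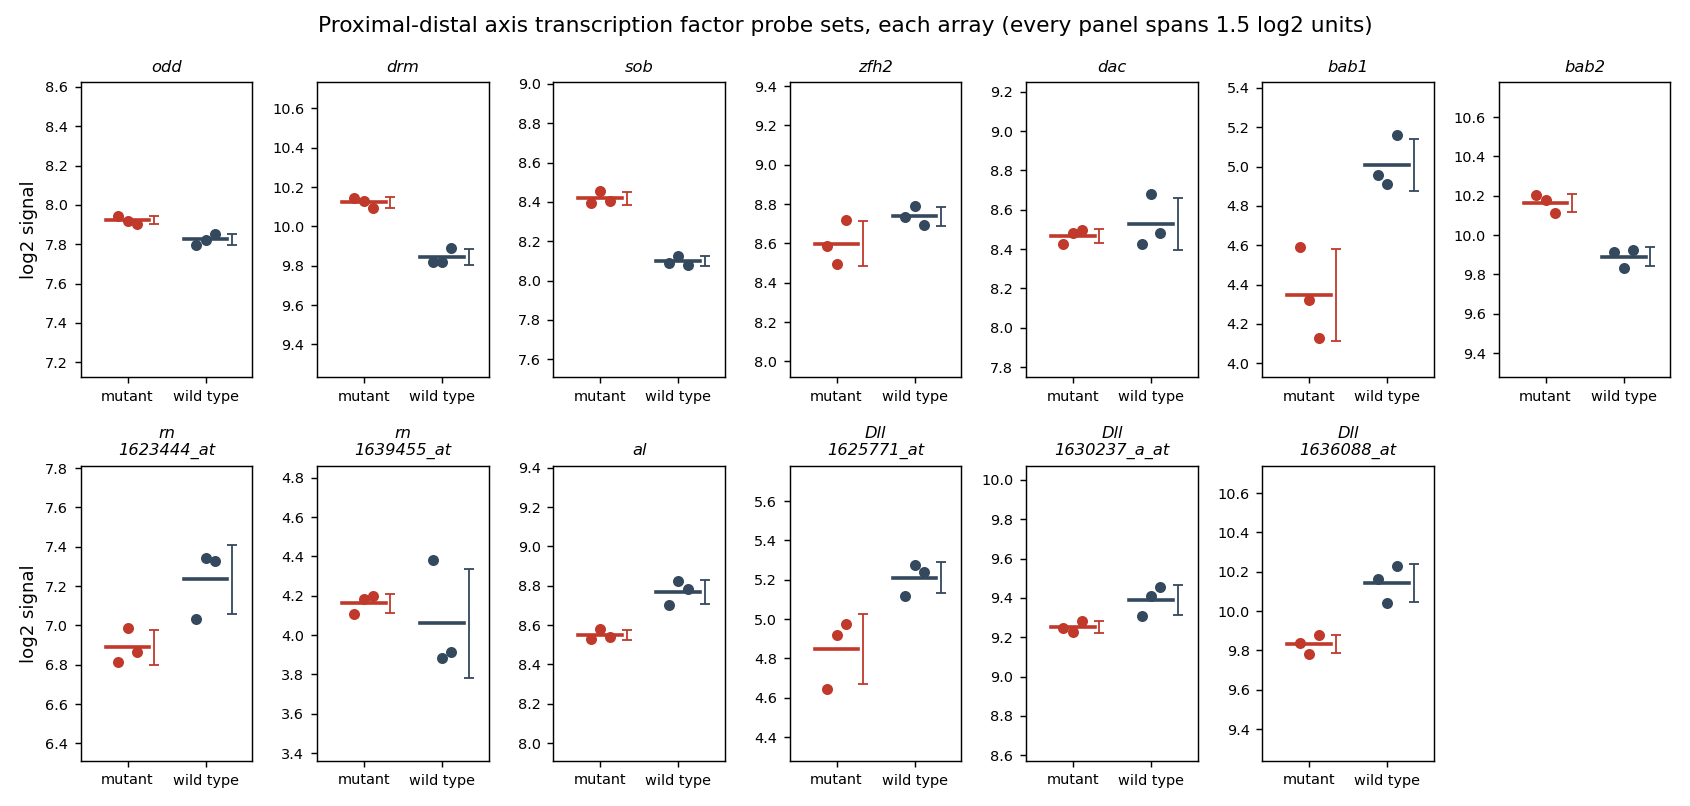
Log2 signal of each of the 13 member probe sets on every array, with the kdm5 mutant on the left and wild type on the right of each panel, points for replicates 1 to 3 from left to right, a bar at the mean and an error bar of 1 SD (n = 3). Each panel spans the same range of log2 units around its own centre. The mutant points of drm, sob and bab2 lie above all wild type points, and those of bab1, al and Dll below them.

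Among the genes of proximal tissue and joints, sob and drm rose together. For sob, one of the odd-skipped family, the log2 signal was 8.39, 8.46 and 8.41 in the mutant arrays, against 8.09, 8.13 and 8.08 in the wild type arrays. The lowest mutant array lay above the highest wild type array by 0.27, several times the spread within either genotype. The change was 0.32 ± 0.05 on the log2 scale (SE), 1.25-fold, with an adjusted p of 0.00351 (limma). For drm (drumstick), whose protein binds and relieves the Lines repressor that restrains Bowl, the mutant arrays read 10.14, 10.13 and 10.09, against 9.82, 9.82 and 9.89 in wild type. Every mutant array was again the higher, by 0.28 ± 0.05 on the log2 scale (SE, limma adjusted p = 0.00721). The drm probe set has the suffix that the manufacturer gives to probes shared by more than 1 transcript group, although the annotation assigns it to drm alone. Other probe sets carry this suffix too, among them those of dac, bowl and Kdm5 and the brightest of vg.

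The third linked gene of the family, odd, moved less. Its log2 signal was 7.94, 7.92 and 7.90 in the mutant arrays, against 7.80, 7.82 and 7.85 in the wild type arrays. The groups did not overlap, but the gap was 0.05 and the change of 0.10 ± 0.05 (SE) was not called (adjusted p = 0.22, limma), with a 95% interval of -0.01 to 0.21. The change of sob exceeded that of odd by 0.22, and that of drm exceeded it by 0.18, each with the smallest exact permutation p of 0.1. The family's other member, bowl, averaged 12.18 ± 0.07 in the mutant and 12.05 ± 0.08 in wild type (log2, SD, n = 3 each), a change of 0.12 ± 0.06 (SE) that was not called (adjusted p = 0.241, limma).

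In gene order on the assembly Release 6 plus ISO1 MT, drm, sob and odd lie in a row, with 1 other protein-coding gene between drm and sob, and bab1 lies next to bab2. Among the protein-coding genes up to 2 places away on either side of any member, 29 were not members and 25 of these were measured. Of the 25, 4 were called higher and 2 lower, which is 24.0% against 21.7% of all named genes counted by their brightest probe set. The share of flanking genes called was thus close to that of all genes. Beside the row of drm, sob and odd, 2 flanking genes were called, in opposite directions. Spindly, 2 places from drm, changed by 0.64 on the log2 scale (adjusted p = 0.000689, limma), and Ugt36A1, next to odd, by -0.35 (adjusted p = 0.0298, limma).

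The hinge gene zfh2, which encodes a large zinc finger and homeodomain protein, was not called. It read 8.59, 8.49 and 8.72 in the mutant arrays, against 8.73, 8.79 and 8.69 in the wild type arrays. The third mutant array lay within the wild type range, and the change was -0.14 ± 0.07 (SE, adjusted p = 0.228, limma), with a 95% interval of -0.30 to 0.02. For dac, which encodes a nuclear factor of the intermediate leg related to the Ski and Sno proteins, the mutant arrays read 8.43, 8.48 and 8.50. The wild type arrays read 8.43, 8.68 and 8.48 for dac, and only the second stood above the mutant arrays. The change of dac was -0.06 ± 0.07 (SE, adjusted p = 0.657, limma), with a 95% interval of -0.23 to 0.11, and it was 0.014 without wild type replicate 2.

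**Figure D2:**
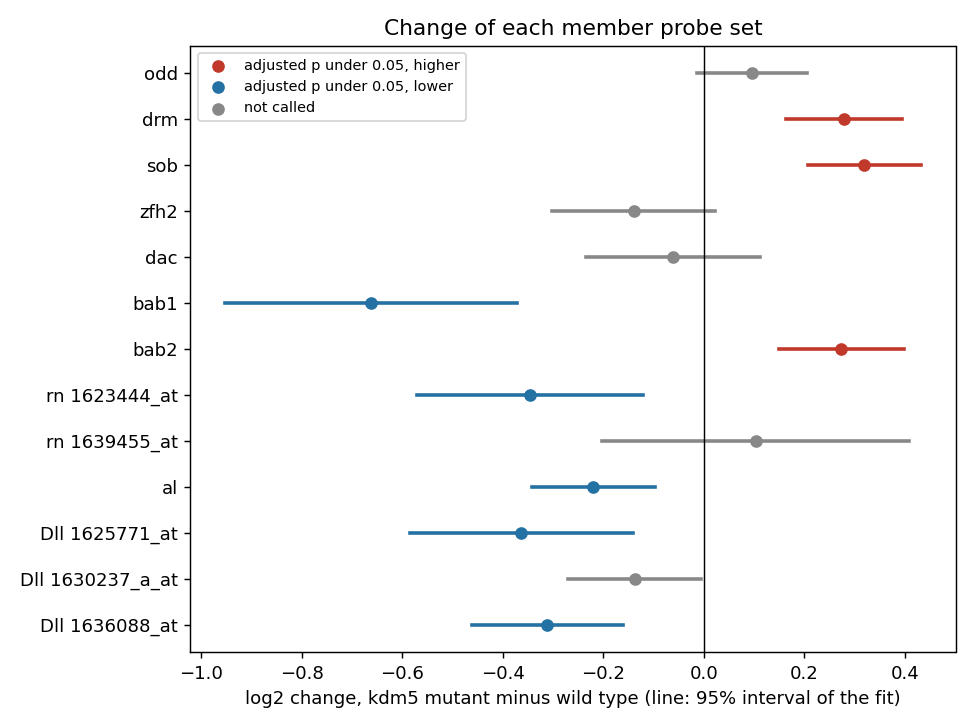
Log2 change of each member probe set, kdm5 mutant minus wild type, with the 95% interval of the limma fit as a line and the genes in the order first listed in the text. The 3 higher calls (drm, sob and bab2) lie between 0.27 and 0.32, and the 5 lower calls reach from -0.22 for al to -0.66 for bab1.

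The adjacent paralogues bab1 and bab2, which encode BTB domain proteins of the tarsal segments, changed in opposite directions. The log2 signal of bab2 was 10.20, 10.18 and 10.11 in the mutant arrays, against 9.91, 9.83 and 9.92 in the wild type arrays. All mutant arrays were higher, by 0.27 ± 0.05 (SE), 1.21-fold, with an adjusted p of 0.0114 (limma). The bab1 probe set read 4.59, 4.32 and 4.13 in the mutant arrays, against 4.96, 4.91 and 5.16 in the wild type arrays. All mutant arrays were lower, with a log2 difference of -0.66 ± 0.12 (SE, limma adjusted p = 0.00962), the largest change among the members and the 931st largest among all probe sets. The mutant mean of bab1, 4.35 ± 0.23 (SD, n = 3), lay below the median signal, and its wild type mean, 5.01 ± 0.13, not far above it. The array's background was not measured here, and its part in the size of the change of bab1 was not tested. The change of bab2 exceeded that of bab1 by 0.94 on the log2 scale, with non-overlapping arrays and an exact permutation p of 0.1, the smallest possible.

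For rn, a zinc finger gene of the tarsus and the wing pouch, the brighter probe set (1623444_at) read 6.81, 6.99 and 6.87 in the mutant arrays. Its wild type arrays read 7.03, 7.34 and 7.33, so the groups were separated by only 0.05. The change of -0.35 ± 0.10 (SE, adjusted p = 0.046, limma) was just inside the threshold. It was called without wild type replicate 1 (-0.45, adjusted p = 0.00943) and lost its call without any one of the other 5 arrays (adjusted p = 0.0657 to 0.134, limma). The dimmer rn probe set (1639455_at) read 4.11, 4.18 and 4.20 in the mutant arrays, against 4.38, 3.88 and 3.91 in the wild type arrays. Its mean lay below the median signal in both genotypes, the groups overlapped, and the change was 0.10 ± 0.13 (SE, adjusted p = 0.671, limma). Without wild type replicate 1 it was 0.26 and called higher (adjusted p = 0.0361, limma). On all arrays the changes of the 2 rn probe sets were opposite in sign. They differed by 0.45, with an exact permutation p of 0.4, so a difference between the 2 probe sets was not shown.

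Dll, a homeobox gene needed for the distal limb and expressed at the wing margin, was lower in all 3 of its probe sets, of which 2 were called. The brightest probe set (1636088_at) read 9.84, 9.78 and 9.88 in the mutant arrays, against 10.16, 10.04 and 10.23 in the wild type arrays. No mutant array reached the lowest wild type array, and the log2 change was -0.31 ± 0.06 (SE, adjusted p = 0.0147, limma). The second bright probe set (1630237_a_at), which by its suffix detects several transcripts of the gene, read 9.24, 9.23 and 9.28 in the mutant, against 9.31, 9.41 and 9.45 in wild type. The groups were separated by 0.02, and the change of -0.14 ± 0.06 (SE) was not called (adjusted p = 0.15, limma). The dimmest probe set (1625771_at) read 4.65, 4.92 and 4.98 in the mutant arrays, against 5.12, 5.27 and 5.24 in the wild type arrays, a change of -0.36 ± 0.09 (SE, adjusted p = 0.0375, limma). This last probe set lay close to the median signal. It lost its call without any one array other than mutant replicate 3 (adjusted p = 0.057 to 0.106, limma), and the brightest lost it without wild type replicate 1 or mutant replicate 2 (adjusted p = 0.0523 and 0.0609, limma). Between the 2 bright probe sets the changes differed by 0.17, with an exact permutation p of 0.1.

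The other distal homeobox gene, al, which marks the tip of the leg and acts beside Lim1 and C15 there, read 8.53, 8.58 and 8.54 in the mutant arrays. The wild type arrays of al read 8.70, 8.82 and 8.78, all above the mutant arrays. The log2 change of al was -0.22 ± 0.05 (SE), 1.16-fold, with an adjusted p of 0.0263 (limma). Its call held without wild type replicate 1 (adjusted p = 0.033) and was lost without any one of the other 5 arrays (adjusted p = 0.0701 to 0.089, limma), while the change itself stayed between -0.19 and -0.25. The share of all probe sets called with 1 array left out was not counted. With 1 array left out, 4 to 6 of the 8 member calls were kept. They were 6 without wild type replicate 1, where the dimmer rn probe set was called in addition, 5 without either of wild type replicates 2 and 3, 5 without mutant replicate 1, 4 without mutant replicate 2 and 6 without mutant replicate 3.

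The calls of bab1, bab2, sob and drm held under each of the 14 alternatives tried for them, with adjusted p of at most 0.0358, 0.0499, 0.021 and 0.037 (limma). The lower calls of Dll, rn and al did not survive when the arrays were centred on spike-in controls, RNA of other species added during labelling and hybridization. Over all probe sets the median change was 0.09 when centred on the polyadenylated spike-ins and 0.19 when centred on the hybridization spike-ins, against 0.01 as deposited. With the hybridization spike-ins, sob, drm and bab2 read 0.50, 0.46 and 0.45, odd was called at 0.28 (adjusted p = 0.0163, limma), and bab1 read -0.48. The brightest Dll probe set read -0.13, the brighter rn probe set -0.17 and al -0.04 there. Centring shifts the change of every probe set alike, so it cannot alter where these lie relative to the median of all probe sets.

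**Figure D3:**
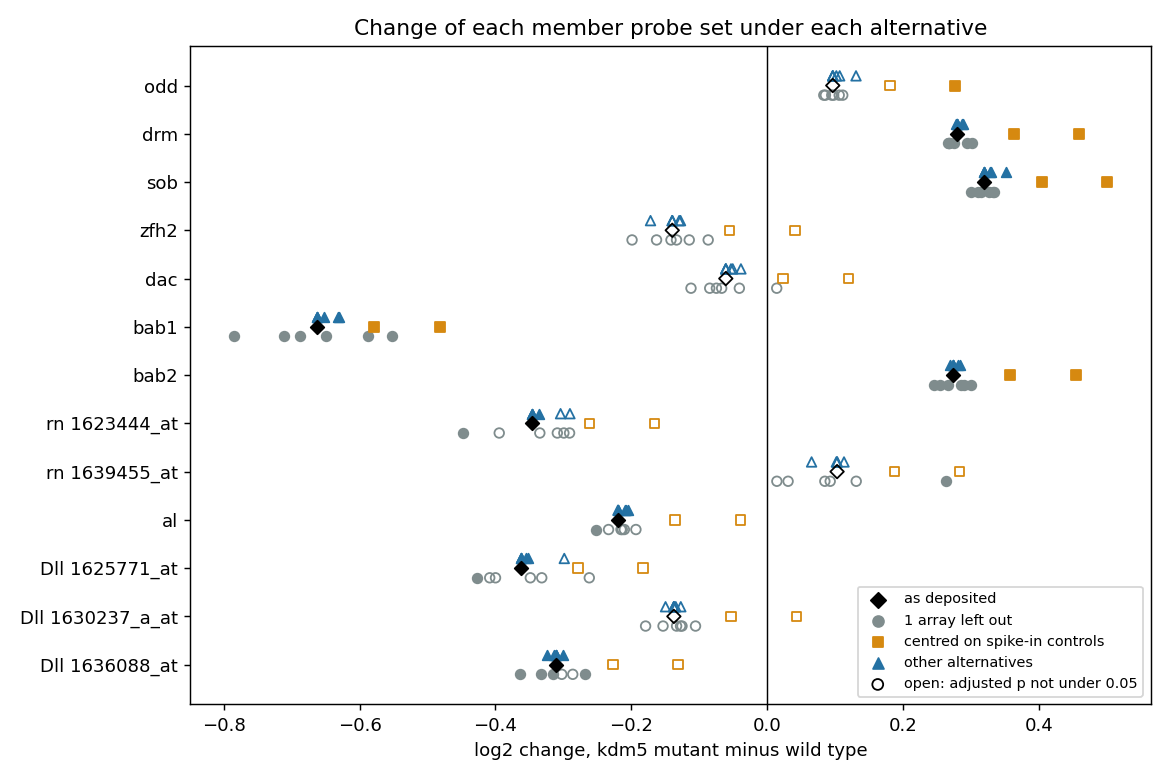
Log2 change of each member probe set, kdm5 mutant minus wild type, under the values as deposited (diamonds), with 1 array left out (circles), centred on spike-in controls (squares) and under the other alternatives (triangles). Filled symbols have an adjusted p under 0.05 (limma). The symbols of bab1, bab2, sob and drm are filled throughout, and those of al, rn and Dll are a mix of filled and open.

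Among genes that act with the members along the axis few were called through their brightest probe set on the values as deposited, and the count depended on the processing. Of 44 such genes 35 were measured, of which 1 was called higher and 2 lower, against 21.7% of all named genes. Of the 35, 31 lay above the median signal in at least 1 genotype. Among all probe sets with a mean above it, 31.9% were called. The 3 calls became 7 with quantile normalization or with dim probe sets left out, 8 with a trended and robust prior and 16, all higher, when centred on the hybridization spike-ins. They became 1 with the replicate block and 1 without mutant replicate 1 or any one wild type replicate. The share of all probe sets called was not counted under these alternatives, so the shifts in count cannot be read as particular to these genes. The median log2 change of the 35 was 0.03, against 0.01 over all probe sets. Not analysed were wg, vn, rho, hth, exd, sd, trh, Ser and Dl, which had no probe set assigned to them alone. The Wingless gene itself (wg) is thus not among the signals counted here. None of the 5 measured genes of signals and receptors was called, and the brightest, the Dpp receptor gene tkv and the EGF receptor ligand gene spi, changed by 0.01 ± 0.05 and -0.02 ± 0.09 (log2 change ± SE). Their adjusted p were 0.896 and 0.929 (limma), with 95% intervals of -0.10 to 0.12 and -0.22 to 0.19. None of 10 proximal and hinge transcription factor genes was called, and noc, a zinc finger gene bright in both genotypes, changed by 0.11 ± 0.06 (SE, adjusted p = 0.279, limma). None of 3 growth and joint genes was called, with nw at -0.10 ± 0.05 and the cadherin gene ds at 0.08 ± 0.06 (SE, adjusted p = 0.209 and 0.474, limma).

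Both lower calls belonged to the 7 measured wing pouch genes. The wing selector gene vg read 10.99, 11.03 and 11.04 in the mutant arrays, against 11.22, 11.20 and 11.18 in the wild type arrays, a change of -0.18 ± 0.05 (SE, adjusted p = 0.0347, limma). Its second probe set changed by 0.04 (adjusted p = 0.678, limma), so the lower call rests on 1 of its 2 probe sets. The Dpp target gene salm, a zinc finger factor of the central pouch, read 11.17, 11.22 and 11.31 in the mutant, against 11.41, 11.44 and 11.48 in wild type, a change of -0.21 ± 0.06 (SE, adjusted p = 0.039, limma). The mutant arrays of both genes were all below the wild type arrays. The call of vg was lost without any single array (adjusted p = 0.0636 to 0.117, limma), and that of salm was lost without any array other than mutant replicate 3 (adjusted p = 0.0782 to 0.127, limma). Neither was called with either spike-in centring.

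Of 10 limb and leg transcription factor genes 1 was called, disco-r, a zinc finger gene required with disco in the ventral appendages. It read 6.97, 6.92 and 6.89 in the mutant arrays, against 6.65, 6.69 and 6.69 in the wild type arrays. The change of 0.25 ± 0.05 (SE, adjusted p = 0.0111, limma) was called under all 14 alternatives fitted to this probe set, with the highest adjusted p at 0.0488. Averaging the probe sets of the gene was not among these 14. Its second, dimmer probe set lay below the median signal and changed by 0.01 (adjusted p = 0.95, limma). For genes with several probe sets the brightest was counted, and in 3 genes a dimmer one was called where the brightest was not. The probe sets of the POU gene nub read 0.95 and -0.59 where the brightest read 0.01, a second probe set of ap read 0.58 where the brightest read 0.03, and one of elB read 0.23 where the brightest read 0.02. All 4 of these dimmer probe sets were called (adjusted p = 0.00105, 0.00634, 0.000403 and 0.0141, limma).

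**Figure D4:**
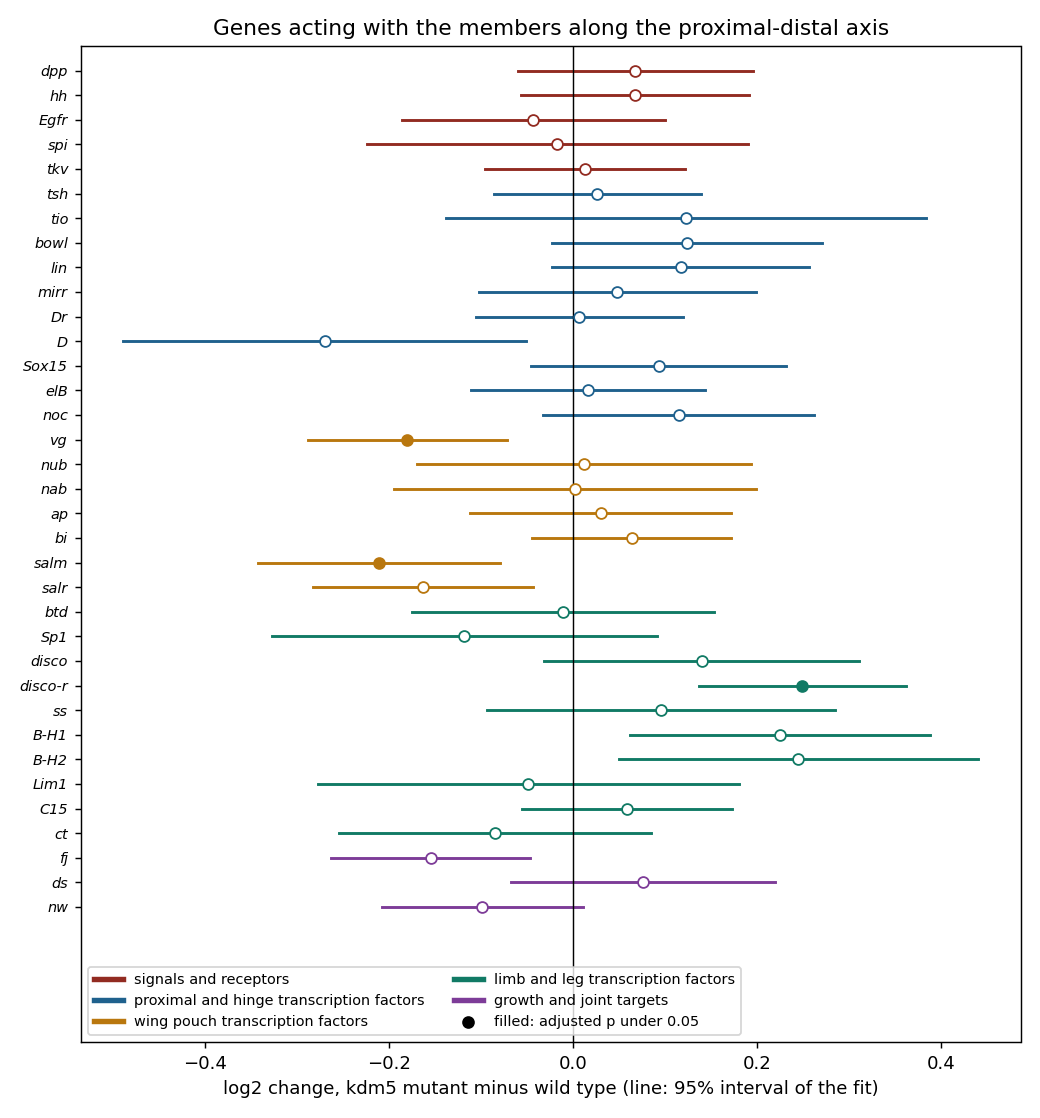
Log2 change, kdm5 mutant minus wild type, of the 35 measured genes that act with the members along the proximal-distal axis, with the 95% interval of the limma fit, coloured by role. Only disco-r (0.25), vg (-0.18) and salm (-0.21) are filled, the mark of an adjusted p under 0.05.

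Leg discs lie close to wing discs in the larva and express Dll, dac, al and the bab genes strongly, so leg disc markers were read beside these results. All 8 were measured (btd, Sp1, disco, disco-r, Scr, Poxm, C15 and Lim1), 1 was called higher (disco-r) and none lower. The log2 of their summed signal lay between 8.55 and 8.62 in the mutant arrays and between 8.43 and 8.47 in the wild type arrays. This sum was mostly that of disco-r, which averaged 6.93 in the mutant and 6.68 in wild type, and disco, at 6.67 and 6.53. It is therefore not independent of the disco-r call. The leg genes btd, Sp1, Scr and Lim1 were below the median signal in the mutant as well as in wild type. The part of leg disc cells in the member changes was not tested, and in bulk RNA fewer cells of a type and less RNA per cell cannot be told apart. The haltere disc marker Ubx was not analysed here. Of 6 eye-antennal disc markers none was called, and the brightest, eya and so, changed by 0.07 ± 0.05 and 0.10 ± 0.06 (SE, adjusted p = 0.434 and 0.266, limma). Their summed signal on the log2 scale lay between 8.95 and 8.98 in the mutant and between 8.86 and 8.94 in wild type.

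Markers of cells other than the disc epithelium were counted in the same way. Of 5 salivary gland markers 5 were called lower, and their summed log2 signal was 9.46 to 9.59 in the mutant, against 11.92 to 13.12 in wild type. Wild type replicate 1 was the highest array for each of the 5, as for Sgs3 (11.11, against 9.71 and 9.42 in wild type replicates 2 and 3). Of 5 measured fat body markers 4 were called lower, with 7.95 to 8.22 in the mutant and 9.72 to 11.10 in wild type. Those 4 were also highest in wild type replicate 1. Of 7 haemocyte markers 2 were called higher (Ppn and eater, at 0.26 and 0.57 on the log2 scale) and 3 lower (PPO1, PPO2 and Hml, at -1.59, -1.56 and -0.56). Their summed log2 signal, 12.47 to 12.53 in the mutant and 12.32 to 12.40 in wild type, was mostly that of Ppn, which averaged 12.40 in the mutant and 12.14 in wild type. Of 5 measured tracheal markers 3 were called higher (serp, verm and Osi7, at 1.48, 0.96 and 0.31) and 1 lower (Gasp, at -0.25), while btl was not called (0.22, adjusted p = 0.386, limma). Their summed log2 signal was 12.85 to 12.88 in the mutant and 12.35 to 12.45 in wild type, and the genes did not share a direction. Of 6 measured markers of the adepithelial myoblasts 1 was called higher (Ama, at 0.36) and 1 lower (Nplp2, at -1.34). Their summed log2 signal, 12.83 to 12.89 in the mutant and 12.53 to 12.63 in wild type, was mostly that of Ama, which averaged 12.58 in the mutant and 12.22 in wild type. Their part in the member changes was not tested.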

How the data were processed

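RNA of wing imaginal discs was labelled with biotin and measured on 1-colour arrays, 3 per genotype. The deposited series matrix holds log2 signals per probe set, normalized by the authors. Per the submitters' processing notes the software was GCOS, Expression Console (Affymetrix), GCRMA and PLIER, with no version or order. Which of them gave the deposited values is not stated there. Of 18952 probe sets, 183 manufacturer controls were left out. The platform annotation gave 13646 of the others 1 symbol, 402 several and 4721 none, updated by gene identifier. Coordinates are left out, since no build is named. Probe sequences were not used.

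All probe sets were fitted together in limma 3.58.1 (R 4.3.3; lmFit, eBayes; genotype as the only term, two-sided), with Benjamini-Hochberg adjustment over all 18769. The fit was tested on simulated data. Exact permutation tests were added for single values. The number of arrays limits the precision. Members and lists were chosen with earlier results of these data known. All member probe sets were named. From companion and marker lists, the called genes (up to 4 by smallest p) or the 2 brightest were named, with marker lists given as counts. Ugt36A1, Spindly, the dimmer probe sets, the low leg genes and bowl's comparison were named after their values were seen. Alternatives were a replicate block, quantile and median scaling, 2 spike-in centrings, a filter on dim probe sets, another prior, array weights, averaged probe sets, a 2-fold threshold and each array left out.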

Additional observations from a re-analysis of the deposited data

How the results depend on the processing

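The 8 member calls read 7 with a replicate block, 6 with quantile normalization, 4 centred on the polyadenylated and 5 centred on the hybridization spike-ins, 4 to 7 with 1 array left out (4 to 6 of them among the 8), and 0 with a 2-fold threshold added. The 3 calls among companion genes read 1 with the replicate block, 7 with quantile normalization, 7 with dim probe sets left out, 8 with the trended and robust prior, 5 with array weights, 5 with probe sets averaged, 16 with the hybridization spike-ins (all higher), and 1 to 3 with 1 array left out. How many of all probe sets were called under each alternative was not counted. The shifts in the member and companion counts can therefore not be read as particular to these genes. Uncalled members changed sign in these cases: dac read 0.023 with the polyadenylated spike-ins, 0.12 with the hybridization spike-ins and 0.014 without wild type replicate 2 (-0.11 to 0.014 with 1 array left out), and with the hybridization spike-ins Dll 1630237_a_at read 0.043 and zfh2 0.041. The cause was not tested, apart from the spike-in centrings, which by construction shift every probe set alike. Arrays of one replicate number did not deviate together (correlations of -0.07, -0.03 and -0.18), and no array correlated best with its own number, so the numbers were not treated as a pairing. Deviations from the mean of 3 arrays are tied to one another, so these correlations cannot decide whether the replicates were paired. With the replicate block al was not called (-0.22, adjusted p = 0.0622, limma). The probe sets of bab1 and the dimmer ones of Dll and rn lay near the median signal, and background was not measured.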
